A study of Mus musculus with 2 samples.

Results

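The genes examined here encode neuropeptides and the proteins that pack, cut and release them from dense-core vesicles. They were named as a list of 40 genes, and their expression in optic nerve and tract was compared between CD47 KO and WT mice. Of the 40 genes, 35 had a probe set on the array that carries their name alone, and 31 of these were measured, out of 12481 genes measured in all. A gene counted as measured when its brightest probe set had a signal above 106.2, the median of all signals, in the CD47 KO array, the WT array or both; this median is the floor, and lower signals were set to it before a ratio was taken. The list was drawn up with earlier results of these arrays known.

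The CD47 KO array carried pooled RNA of male mice with a null mutation of Cd47 (12 to 15 weeks of age), and the WT array pooled RNA of male wild-type mice (13 to 15 weeks of age). The comparison asks how the white matter differs without CD47, a membrane protein that engages the receptor SIRPα on microglia. The mutation is present in every cell of the animal, and neither the labels nor the methods name a strain. The series text counts 4 CD47 KO and 5 WT animals in the pools, as do the methods of the study, and the labelling protocol counts 5 CD47 KO and 4 WT animals. Each genotype has 1 array and no replicate, so all differences lack a test and describe these 2 pools only. In bulk tissue, fewer cells of a type and less RNA per cell cannot be told apart.

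Neuropeptides are made as larger precursors that enter dense-core vesicles together with the acidic granin proteins. There prohormone convertases cut the precursors at basic residues, carboxypeptidase E trims the ends and peptidylglycine α-amidating monooxygenase amidates many of the products. The vesicles release their content when calcium rises in the cell. Neurons make most of these peptides in cell bodies of grey matter, and the optic chiasm and tract run along hypothalamic nuclei that make vasopressin, oxytocin and vasoactive intestinal peptide. Some components, such as carboxypeptidase E and secretogranins, are also made by astrocytes.

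Most of the measured genes had a lower signal in CD47 KO white matter. The log2 ratio (CD47 KO over WT) lay below 0 for 24 of the 31 genes (77.4%), against 53.2% of all measured genes. Their median log2 ratio was -0.45, whereas that of all 12481 genes was -0.02. A gene under the floor in 1 array has only a bound, whose sign the filter sets, and this held for Tac2. Of the 30 genes above the floor in both arrays 23 were below 0, with a median of -0.46. Among all 11595 genes above the floor in both arrays 6100 were below 0, with a median of -0.01. Counts of this kind, over genes above the floor in both arrays, were added after the data were seen. Over 1.5-fold lower were 11 of the 31 (35.5%), against 4.69% of all genes, and over 2-fold lower were 3 (9.68%), against 0.817% of all genes. Only Pomc was over 1.5-fold higher, and it was also over 2-fold higher (1 of 31, 3.23%); among all genes 4.02% were over 1.5-fold higher and 1.21% over 2-fold higher. The other 19 genes lay within 1.5-fold. The middle 90% of all measured genes, between the 5th and the 95th percentile, ran from -0.57 to 0.53 in log2 ratio, and 11 of the 31 genes lay below this range and 1 above it.

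The only repeat measurement on these arrays comes from genes that several probe sets read. Comparison of their log2 ratios over 11670 pairs gave differences with an SD of 0.36 and an absolute 95th percentile of 0.75. For the 2917 dimmest pairs, with signals of 107 to 195, the SD was 0.45, and for the 2918 brightest, above 822, it was 0.23. This spread holds no variation between mice or between arrays. Among the 31 genes only Pomc was measured by more than 1 probe set.

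**Figure D1:**
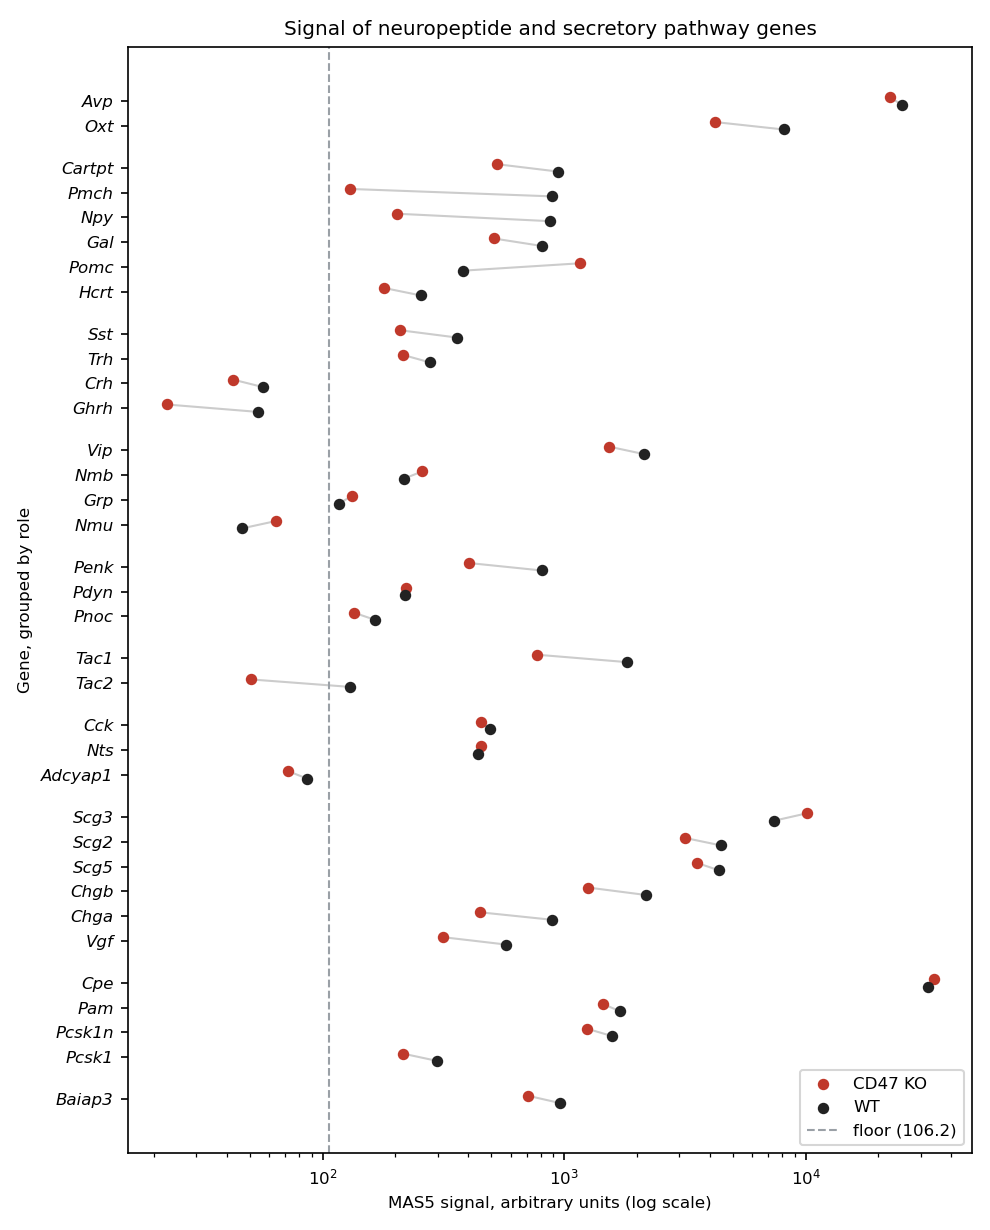
MAS5 signal (horizontal, log scale, arbitrary units) of the brightest probe set of each of the 35 genes with a probe set, grouped by role; red points are the CD47 KO pool, black points the WT pool, with a dashed line at the floor (106.2). The red point lies left of the black one for most genes, furthest for Pmch and Npy, and right of it for Pomc and Scg3; Crh, Ghrh, Nmu and Adcyap1 lie left of the floor in both pools.

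Peptides of feeding and arousal held the most divergent values of the list. Pmch encodes the precursor of melanin-concentrating hormone, a peptide of lateral hypothalamic neurons that promotes feeding and sleep. Its signal was 130.2 in CD47 KO and 894 in WT white matter, 6.86-fold lower (log2 ratio -2.78), which was the lowest ratio among the 12481 genes. Npy encodes neuropeptide Y, made by arcuate neurons that drive feeding and by interneurons of the cortex and striatum. It had a signal of 203 in CD47 KO and 872 in WT, 4.29-fold lower (log2 ratio -2.10), the next lowest ratio of all. The CD47 KO signal of Pmch was just above the floor, so that its ratio depends on where the floor is set. With the floor at the 60th percentile of all signals the log2 ratio of Pmch was a bound, -2.26, and still the lowest. Without a floor Pmch came 16th and Npy 38th among ratios that then include unbounded values of dim genes.

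Pomc went the other way. It encodes pro-opiomelanocortin, the precursor of the melanocortins, which restrain feeding, of β-endorphin and, in pituitary corticotrophs, of ACTH. Its brightest probe set gave 1166 in CD47 KO and 379 in WT, 3.07-fold higher, with a log2 ratio of 1.62. Its other probe set gave 876 in CD47 KO and 495 in WT, 1.77-fold higher (log2 ratio 0.82). Both were higher, but they differed by 0.80 in log2 ratio, above the 95th percentile of 0.75 for probe set pairs. The suffix of the brighter probe set (_x_at) marks possible cross-hybridisation, and that of the other is a different one (_a_at). Neither was used when all probe sets ending in _s_at, _x_at or _a_at were left out. Of the pituitary hormone genes, which were compared because ACTH is a pituitary hormone, Gh (growth hormone) had a signal of 6908 in CD47 KO and 2191 in WT and Prl (prolactin) 545 in CD47 KO and 413 in WT. Cga, the subunit shared by the pituitary glycoprotein hormones, went the opposite way, with 185 in CD47 KO and 460.2 in WT. Over all 11 pituitary markers with a probe set the summed signal was 8040 in CD47 KO and 3375 in WT. Gh made up most of both sums. Its probe set has the same suffix as the brighter one of Pomc. Of the 11 markers 4 were measured, with 2 above and 2 below 0. Among them Tshb (thyrotropin subunit) was a bound, with 103 in CD47 KO and 114 in WT. The corticotroph transcription factor gene Tbx19 was under the floor in both pools (68.8 in CD47 KO and 39.9 in WT), as was Pitx1 (69.9 in CD47 KO and 70.7 in WT). The part of pituitary tissue in the Pomc value was not tested.

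The stretches of 120 bases before the RefSeq start site are shown for Pmch and Npy, the genes with the lowest ratios, and for Pomc, the gene with the highest. They lie in assembly GRCm38.p6 at chr10:88090952-88091071, chr6:49822590-49822709 and chr12:3954825-3954944, all on the plus strand, and capitals mark a TATA box match (TATAAA).
Pmch: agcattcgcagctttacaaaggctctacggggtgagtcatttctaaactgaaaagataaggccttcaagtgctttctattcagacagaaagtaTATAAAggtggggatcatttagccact
Npy: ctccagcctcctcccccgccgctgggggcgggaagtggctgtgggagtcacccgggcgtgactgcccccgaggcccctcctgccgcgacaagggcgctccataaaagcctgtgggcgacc
Pomc: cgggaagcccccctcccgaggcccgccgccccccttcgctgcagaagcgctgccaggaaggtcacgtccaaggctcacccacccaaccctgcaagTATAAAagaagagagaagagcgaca
The match began 27 bases before the start in Pmch and 25 bases before it in Pomc, so that genes at both ends of the range shared this core element. The letters searched were not in the stretch of Npy.

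The other measured peptides of this group were lower by smaller factors. Cartpt (CART peptide, which restrains feeding) had a signal of 527 in CD47 KO and 946 in WT, 1.80-fold lower. Gal, the precursor of galanin, had 512 in CD47 KO and 807 in WT, 1.57-fold lower. Hcrt, the precursor of the orexins that sustain wakefulness, had 180.3 in CD47 KO and 255 in WT, 1.42-fold lower. Hcrt and Pmch come from intermingled neurons of the lateral hypothalamus, and the log2 ratio was -0.50 for Hcrt and -2.78 for Pmch. Hcrt was much dimmer than Pmch in WT, so that the floor set a nearer limit to its ratio. That limit was not reached, because the CD47 KO signal of Hcrt was above the floor. Without a floor its log2 ratio was also -0.50. The SD of the difference between 2 probe sets of like signal was 0.40 for Hcrt. Over the 6 measured genes of the group 5 were below 0, with a median of -0.75. Agrp had no probe set of its name here and was not analysed.

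The magnocellular hormones were among the brightest genes of the list and differed from each other. Avp, which encodes vasopressin, had a signal of 22364 in CD47 KO and 24982 in WT, 1.12-fold lower (log2 ratio -0.16). Oxt, which encodes oxytocin and lies next to Avp on chromosome 2, had 4222 in CD47 KO and 8114 in WT, 1.92-fold lower (log2 ratio -0.94). The log2 ratios of both genes differed by 0.78, whereas the 95th percentile among the brightest probe set pairs was 0.47. Each gene rested on 1 probe set. Both are made by the same hypothalamic nuclei, in separate cells.

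Peptides that control the pituitary were dim. Sst (somatostatin, which inhibits growth hormone release and is also made by cortical interneurons) had 208 in CD47 KO and 361 in WT, 1.74-fold lower. Trh (thyrotropin-releasing hormone) had 215 in CD47 KO and 278 in WT, 1.29-fold lower. Crh (corticotropin-releasing hormone) had 42.7 in CD47 KO and 56.8 in WT, and Ghrh (growth hormone-releasing hormone) 22.6 in CD47 KO and 54.0 in WT; all 4 signals were under the floor and give no ratio. Gnrh1 and Kiss1 had no probe set of their name here.

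Vip, a peptide of the suprachiasmatic clock neurons that receive retinal input, had a signal of 1531 in CD47 KO and 2133 in WT, 1.39-fold lower (log2 ratio -0.48). The bombesin-related genes lay on the other side of 0. Nmb (neuromedin B) had 259 in CD47 KO and 216 in WT, with a log2 ratio of 0.26, and Grp (gastrin-releasing peptide) 132 in CD47 KO and 117 in WT, with a log2 ratio of 0.18. Both were smaller than the SD of the difference between 2 probe sets of like signal, 0.40 for Nmb and 0.45 for Grp. The SD of 1 probe set is smaller, 0.26 over all pairs. Nmu (neuromedin U) was under the floor in both pools, with 64.4 in CD47 KO and 46.5 in WT, and Nms had no probe set of its name here.

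Of the tachykinin and opioid precursors, those known from striatal projection neurons were lower, with 1 exception. Tac1, which encodes substance P, had a signal of 770.3 in CD47 KO and 1819.7 in WT, 2.36-fold lower (log2 ratio -1.24). Its other probe set was under the floor, with 2.85 in CD47 KO and 27.9 in WT. Penk (enkephalins) had 404 in CD47 KO and 806 in WT and was the gene just short of the threshold, 1.997-fold lower. Pdyn (dynorphins), made like Tac1 by striatal neurons with D1 dopamine receptors, had 221 in CD47 KO and 219 in WT, a ratio of 1.01. Pnoc (nociceptin) was 1.23-fold lower, with 134 in CD47 KO and 165 in WT. Tac2 (neurokinin B) had 50.7 in CD47 KO, under the floor, and 129.9 in WT, and was at least 1.22-fold lower. Of 8 striatal markers with a probe set 7 were measured, but Drd1 and Isl1 were above the floor in WT only, so that their sign was set by the filter. The 5 markers above the floor in both arrays were all below 0, with a median of -0.78, and the summed signal over the 8 was 2466 in CD47 KO and 4083 in WT; Drd2 was under the floor in both pools. Drd1 (the D1 receptor) had 76.2 in CD47 KO and 377 in WT, at least 3.55-fold lower, and Rasd2 and Pde10a were 2.63-fold and 2.17-fold lower, and the brightest, Foxp1, had a log2 ratio of -0.45. The part of striatal tissue in the values of Tac1 and Penk was not tested.

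The 120 bases before the start of Tac1, the third gene over 2-fold lower, lie at chr6:7554941-7555060 of GRCm38.p6 on the plus strand. Capitals mark a half-site of the cAMP response element, here TGACG read on the opposite strand.
Tac1: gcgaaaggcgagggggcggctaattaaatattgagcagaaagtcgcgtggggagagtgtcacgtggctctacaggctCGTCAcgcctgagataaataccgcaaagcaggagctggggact

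Of the remaining peptides, Cck (cholecystokinin) had 452 in CD47 KO and 491 in WT (log2 ratio -0.12), and Nts (neurotensin) had 453 in CD47 KO and 439 in WT (log2 ratio 0.05). Adcyap1, which encodes PACAP, the peptide that retinal ganglion cells with melanopsin carry to the clock, was under the floor with 72.0 in CD47 KO and 86.1 in WT. Over all 28 peptide precursors of the list 20 were measured, and their median was -0.42. Of the 20, 15 were below 0, among them Tac2, a bound whose sign the filter sets. Of all measured genes 53.2% were below 0, with a median of -0.02.

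**Figure D2:**
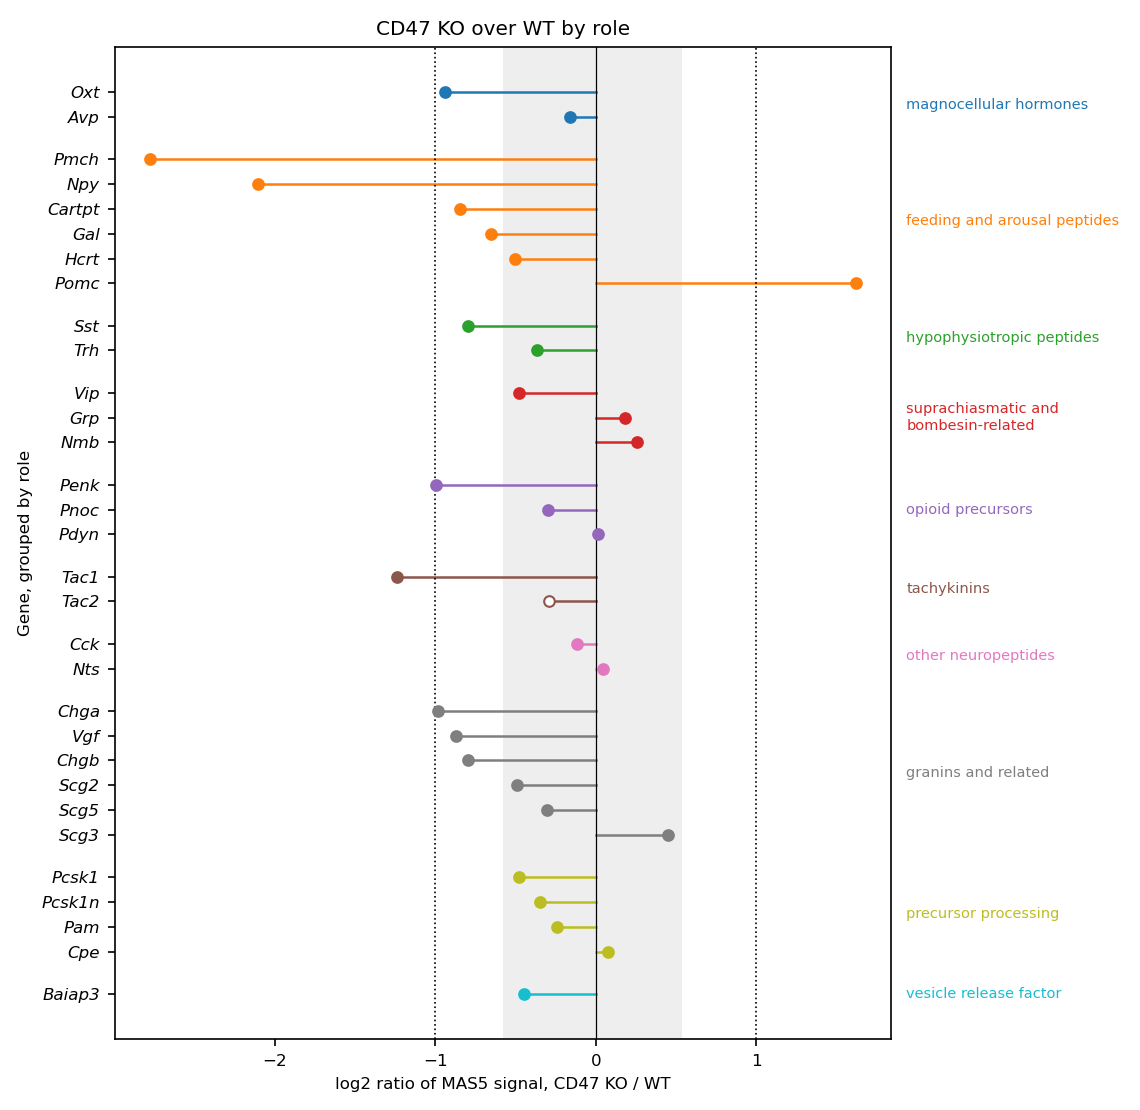
CD47 KO over WT log2 ratio (horizontal) of the 31 measured genes, grouped and coloured by role. The grey band spans the 5th to 95th percentile of all measured genes (-0.57 to 0.53), dotted lines mark 2-fold, and the open circle is a bound. Pmch, Npy and Tac1 lie beyond the left dotted line, Penk, Chga and Oxt just inside it, and Pomc beyond the right one.

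The granins were lower in 5 of 6 genes, with a median log2 ratio of -0.64. Granins aggregate with peptides in the Golgi and help to form the vesicle core. Chga (chromogranin A) had 450.4 in CD47 KO and 889.7 in WT, 1.98-fold lower, and Chgb (chromogranin B) 1259 in CD47 KO and 2182 in WT, 1.73-fold lower. Vgf, a growth factor-induced granin that is itself cut into active peptides, had 314 in CD47 KO and 574 in WT, 1.83-fold lower. Scg2 (secretogranin 2) had 3173 in CD47 KO and 4467 in WT, 1.41-fold lower. Scg5, which encodes 7B2, the chaperone of convertase 2, had 3538 in CD47 KO and 4358 in WT, 1.23-fold lower. Scg3 was the exception, with 10139.8 in CD47 KO and 7416 in WT, 1.37-fold higher. The log2 ratio of Scg3 was 0.94 above that of Scg2.

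The processing enzymes differed less. Pcsk1 (prohormone convertase 1) had 214 in CD47 KO and 299 in WT, 1.39-fold lower, and its inhibitor precursor Pcsk1n (proSAAS) 1245 in CD47 KO and 1585 in WT, 1.27-fold lower. Pam, the amidating enzyme, had 1447 in CD47 KO and 1709 in WT, 1.18-fold lower. Cpe, carboxypeptidase E, was the brightest gene of the list, with 33867 in CD47 KO and 32128 in WT, and its log2 ratio was 0.08; under quantile normalisation it was -0.02. Its other probe set was under the floor in both pools. Baiap3, which acts in the recycling and release of dense-core vesicles, had 705 in CD47 KO and 962 in WT, 1.37-fold lower. Pcsk2 had no probe set of its name here. None of the 11 measured genes of granins, processing and release was over 2-fold lower or higher, and 9 were below 0. Their median was -0.45, close to the -0.42 of the peptide precursors, which includes the bound of Tac2.

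Several genes of this group are known from astrocytes too, among them Scg3 and Cpe, which were above 0, and Scg2 and Pam, which were below 0. The astrocyte markers had a median log2 ratio of 0.14 over 8 genes, all measured, and a summed signal of 105534.5 in CD47 KO and 94015 in WT, with Gfap at 27063 in CD47 KO and 18931 in WT, 1.43-fold higher, and Gja1, the brightest, at 24517 in CD47 KO and 26142 in WT. Sox9 and Aqp4 were 1.31-fold and 1.24-fold higher. The part of astrocytes in these signals was not tested.

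**Figure D3:**
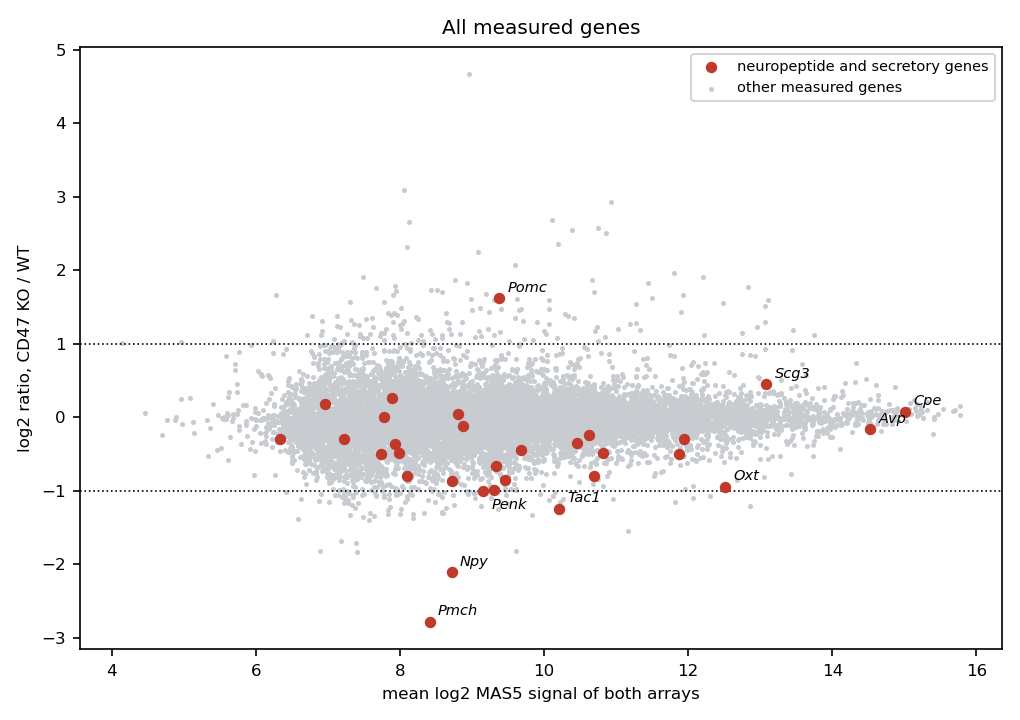
CD47 KO over WT log2 ratio (vertical) against the mean log2 signal of both arrays (horizontal) for 12481 measured genes, with the 31 neuropeptide and secretory genes in red and dotted lines at 2-fold. Pmch and Npy are the lowest 2 points of all.

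Other genes of the same pathway were counted for comparison. Of 27 genes for the transport, docking and release of dense-core vesicles 26 were measured, among them Rab27a and Slc18a2 above the floor in CD47 KO only. Of the other 24, 21 were below 0, with a median of -0.51. In this group Dnm1 (dynamin 1) was 2.05-fold lower, Snap25, a fusion protein, 1.97-fold lower with 2843 in CD47 KO and 5610 in WT, and Rab3c 1.96-fold lower, whereas the brightest, Syt11, had a log2 ratio of 0.09. Of 43 neuropeptide receptor genes only 14 were measured, and 4 of these were bounds, with Npy2r, Crhr1 and Kiss1r above the floor in WT only and Cckbr in CD47 KO only. Of the 10 above the floor in both arrays 9 were below 0, with a median of -0.22. Oprl1, the receptor for the Pnoc product nociceptin, was 2.34-fold lower (153 in CD47 KO and 357 in WT), and Tacr3, the receptor for neurokinin B, 2.11-fold lower (113 in CD47 KO and 238 in WT). The CD47 KO signal of Tacr3 was just above the floor. The suffix of the Tacr3 probe set (_x_at) marks possible cross-hybridisation, and that of Oprl1 is a different one (_a_at). The somatostatin receptor gene Sstr4 was 1.63-fold lower, and the brightest receptor gene, Ntsr2, a neurotensin receptor known from astrocytes, had 2595 in CD47 KO and 2601 in WT. Mchr1, the receptor for melanin-concentrating hormone, had 134 in CD47 KO and 178 in WT, a log2 ratio of -0.41. Mchr1 was chosen after its value was seen, and its probe set has the same suffix as that of Tacr3.

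Peptide precursors and processing enzymes outside the list had medians nearer to 0. Of 26 other peptide genes 7 were measured, with a median of -0.04, from -0.13 to 0.55. Another 14 were under the floor in both pools, so that this median describes few of these genes. Edn3 (endothelin 3) was 1.46-fold, Nppc (C-type natriuretic peptide) 1.32-fold and Npb 1.17-fold higher. The probe set of Edn3 has the same suffix as that of Tacr3. The brightest, Nenf, had a log2 ratio of -0.04. Of 16 other proteases 12 were measured, with a median of -0.10. Among them Ecel1, a neuronal peptidase, was 1.98-fold lower and Pcsk5 1.43-fold lower, while the lysosomal protease gene Ctsl was 1.49-fold higher.

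Markers of neurons in general were lower as well. Of 14 neuronal markers 13 were measured and 12 were below 0, with a median of -0.88, and their summed signal was 15197 in CD47 KO and 24565 in WT. Snap25 counts both here and among the genes of dense-core vesicles, so the lists are not fully separate. Nefm (a neurofilament subunit) was 2.50-fold, Slc17a6 (a glutamate transporter of synaptic vesicles) 2.43-fold and Gad1 (a GABA-synthesising enzyme) 2.17-fold lower, and the brightest, Map2, 1.22-fold lower. Slc17a7, the corresponding transporter of cortical neurons, was under the floor in both pools, with 39.2 in CD47 KO and 52.3 in WT. The median of the neuropeptide and secretory genes, -0.45, was thus closer to 0 than that of the neuronal markers. The part of neuron content in the lower peptide signals was not tested.

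Markers of the hypothalamus lay on both sides of 0. Of 14 transcription factor genes with a probe set 5 were measured, and of the 4 above the floor in both arrays 2 were below 0, with a median of -0.16. The summed signal over the 14 was 2744 in CD47 KO and 3357 in WT. Sim1, needed for oxytocin and vasopressin neurons, was 2.48-fold lower (145 in CD47 KO and 359 in WT), and Otp, which acts in the same lineage, was 1.32-fold lower (884 in CD47 KO and 1167 in WT). Six3 and Six6, factors of the anterior hypothalamus and eye, had log2 ratios of 0.16 and 0.08. Tbx3, an arcuate factor, was above the floor in WT only and at least 1.17-fold lower, and 9 factors, among them Nkx2-1 and Rax, were under the floor in both pools. The choice of Six3, Six6, Nkx2-1 and Rax was made with their values in view. The part of hypothalamic tissue in the peptide values was not tested.

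Myelin markers of the labelled white matter were present. All 9 myelin and oligodendrocyte markers with a probe set were measured, with a median log2 ratio of 0.11, and the brightest, Mobp, had 59026 in CD47 KO and 53099 in WT; Opalin was 1.54-fold and Mal 1.08-fold higher. The retinal ganglion cell markers had a median of -0.08 over 4 genes, among them Thy1 (1.28-fold lower), Opn4 (1.17-fold lower) and Rbpms (1.05-fold higher). Opn4 was near the floor, with 110 in CD47 KO and 129 in WT. Pou4f1 and Pou4f3, of the same list, were under the floor in both pools. Of 8 microglial markers 6 were above and 2 below 0, with a median of 1.15 and log2 ratios of 2.93 for Clec7a, 2.68 for Trem2, 2.65 for Itgax and 0.46 for Csf1r, the brightest. The homeostatic markers Tmem119 and P2ry12 were the 2 below 0, at -0.52 and -0.14. The brightest Cd47 probe set had 1346 in CD47 KO and 3928 in WT; its place relative to the null allele was not looked up.

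**Figure D4:**
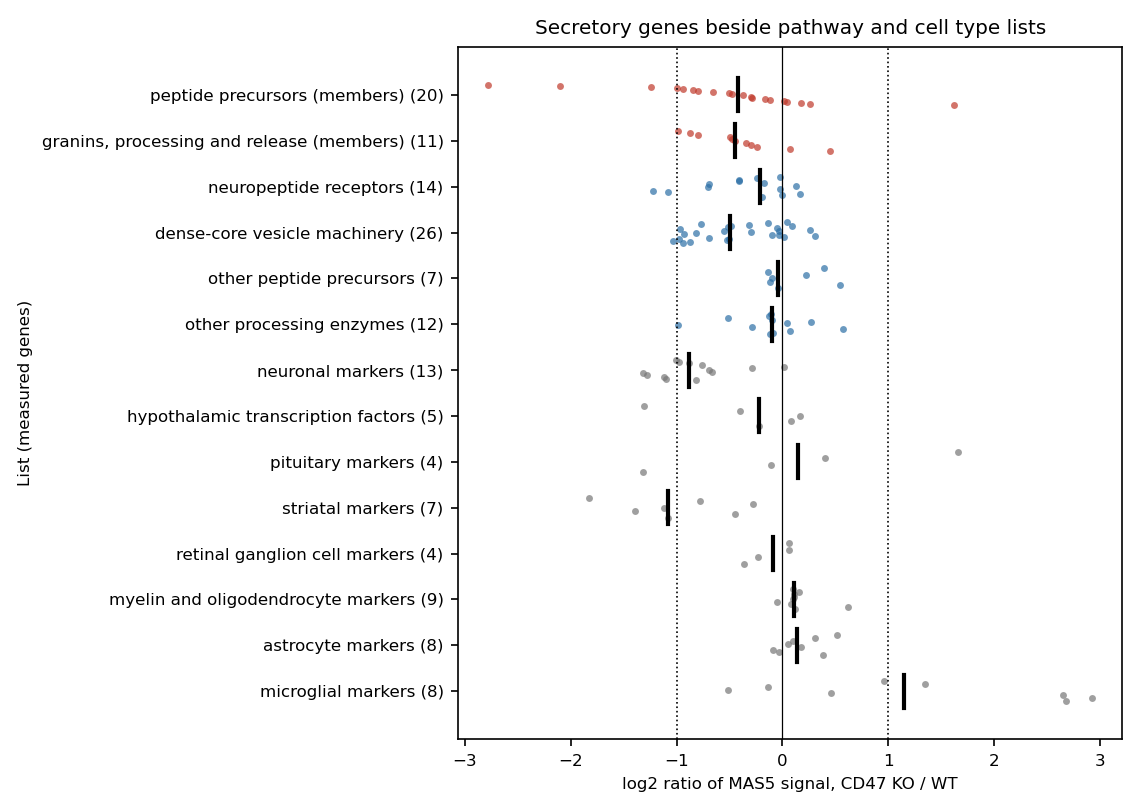
CD47 KO over WT log2 ratio (horizontal) of the measured genes of the neuropeptide and secretory list (red), of other lists of the pathway (blue) and of cell type markers (grey); the number of measured genes is in brackets, black bars are medians with bounds included and dotted lines mark 2-fold. The medians of the 2 red groups (-0.42 and -0.45) lie between those of the neuronal markers (-0.88) and of the other peptide precursors (-0.04).

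Promoter windows of the genes were read from RefSeq (GRCm38.p6), from 250 bases before to 50 bases after each start site, for 32 of the 40 genes. The cAMP response element is the site of CREB, a factor that couples neuronal activity to transcription and was first described in the somatostatin gene. Its full form (TGACGTCA, the same on both strands) was found in 5 of the 32 genes (15.6%), against 2.03% of 27025 genes with such windows. The 5 genes were Cartpt, Sst, Chgb, Scg2 and Pcsk1, a pair of peptides, a pair of granins and a convertase. All 5 were measured and below 0, with log2 ratios from -0.85 to -0.48 and a median of -0.79. Of the 21 other measured genes with a window 16 were below 0, with a median of -0.35. None of the 3 genes over 2-fold lower held the full element.

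The 5 stretches with the full element, in capitals, are shown to compare its place. They lie at chr13:99900684-99900803 (minus strand), chr16:23890845-23890964 (minus strand), chr2:132781522-132781641 (plus strand), chr1:79440027-79440146 (minus strand) and chr13:75089737-75089856 (plus strand), and a further half-site of Pcsk1 is in capitals too.
Cartpt: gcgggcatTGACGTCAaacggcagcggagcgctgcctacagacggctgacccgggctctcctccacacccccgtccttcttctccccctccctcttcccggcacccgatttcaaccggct
Sst: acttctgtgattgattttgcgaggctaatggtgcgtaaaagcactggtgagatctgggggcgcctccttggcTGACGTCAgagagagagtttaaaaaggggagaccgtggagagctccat
Chgb: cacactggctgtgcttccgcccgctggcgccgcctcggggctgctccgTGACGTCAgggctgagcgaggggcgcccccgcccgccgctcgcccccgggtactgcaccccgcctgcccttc
Scg2: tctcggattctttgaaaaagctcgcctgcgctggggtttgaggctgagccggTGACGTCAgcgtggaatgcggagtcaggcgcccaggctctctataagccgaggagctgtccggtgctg
Pcsk1: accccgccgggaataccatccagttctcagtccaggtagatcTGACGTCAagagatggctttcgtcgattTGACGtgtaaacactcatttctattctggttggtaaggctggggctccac
The element began 112 bases before the start in Cartpt, 78 in Pcsk1, 72 in Chgb, 68 in Scg2 and 48 in Sst. The bases around it differed from gene to gene.

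The half-site (TGACG on either strand, which the full element contains) was in the windows of 19 of the 32 genes (59.4%), against 23.0% of all genes. The 14 measured genes with it had a median log2 ratio of -0.49, with 12 below 0, and the 12 without it had a median of -0.32, with 9 below 0. Genes with the half-site ran from Tac1 at -1.24 to Scg3 at 0.45, so that its presence went with both directions. The TATA box, searched 40 to 15 bases before the start on the sense strand, was in 5 of the 32 genes (15.6%), against 2.54% of all genes, namely Pmch, Pomc, Hcrt, Vip and Ghrh. These matches describe letters in a window and were not tested as binding sites.

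**Figure D5:**
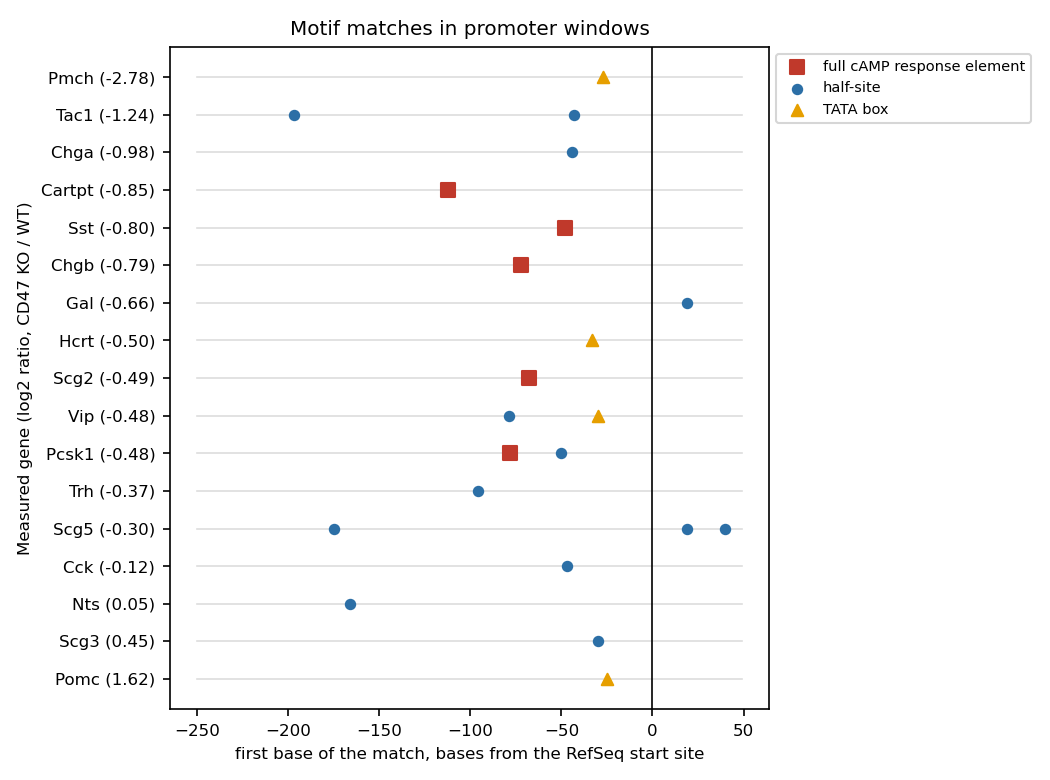
Position of motif matches (horizontal, bases from the RefSeq start site at 0) in the promoter windows of measured genes that hold any, ordered from the lowest log2 ratio (Pmch, -2.78) to the highest (Pomc, 1.62). Red squares are full cAMP response elements, blue circles half-sites outside them and orange triangles TATA boxes; the 5 red squares lie between 112 and 48 bases before the start.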

How the data were processed

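RNA of optic nerve and optic tract, pooled by genotype, had been hybridised to 1 Affymetrix mouse genome array each for CD47 KO and WT. The authors deposited 1 linear MAS5 intensity for each probe set, obtained with Expression Console; no MAS5 version is given in the sources used. The trimmed mean of each array (2% left out at each end) was 500.003, so values are scaled to a common mean. MAS5 is noisy near background, and detection calls were not used here.

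From 45101 probe sets 64 controls were left out. Signals under the median of both arrays (106.2) were set to it, and log2 ratios were formed as CD47 KO over WT. Genes came from the platform annotation (34945 probe sets with 1 symbol, 932 with several, 9160 with none), each by its brightest probe set. A 2-fold threshold follows the study. No test was possible with 1 array per genotype, and precision is limited by this number of arrays. Steps were tested on simulated data. The members and lists were chosen with earlier results of these data known. All 40 members were named, and of each other list the 3 measured genes with the largest absolute log2 ratio and the brightest. Outside this rule Mchr1, Six3, Six6, Tmem119 and P2ry12 were named after their values were seen. The same holds for genes that were bounds (Tshb, Isl1, Npy2r, Crhr1, Kiss1r, Cckbr, Rab27a, Slc18a2). It also holds for genes under the floor (Tbx19, Pitx1, Drd2, Slc17a7, Nkx2-1, Rax, Pou4f1, Pou4f3). Alternatives were floors at the 40th and 60th percentile or none, quantile normalisation, median centring, a loess trend (span 0.3) removed, leaving out probe sets ending in _s_at, _x_at or _a_at, and the median over probe sets. Suffixes are not stated for every gene, and Rasd2 (_s_at), Tbx3 (_x_at), Gja1 (_x_at) and others were read by such probe sets too. Python 3.11.15, pandas 2.3.3 and statsmodels 0.14.6 were used.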

Additional observations from a re-analysis of the deposited data

How the results depend on the processing

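Over 8 alternative settings the median log2 ratio of the genes ran from -0.48 to -0.41, the number below 0 from 22 to 25 and the number over 2-fold lower from 3 to 4. The number measured changed too. The 22 were out of 28, under the 60th percentile floor and without probe sets ending in _s_at, _x_at or _a_at. The 25 were out of 32 under the 40th percentile floor and out of 31 after quantile normalisation. Among all measured genes the share below 0 ran from 46.6% to 53.7%. Their share over 2-fold lower ran from 0.507% to 2.02%, the latter without a floor, where the count of 4 arose. Pmch, Npy and Tac1 were over 2-fold lower in all 8, and Tac2 joined them without a floor (log2 ratio -1.36, from signals near background). The number over 2-fold higher was 0 without probe sets ending in _s_at, _x_at or _a_at, because both probe sets of Pomc were then left out, and 1 in the other 7 settings. The median over the probe sets of Pomc gave a log2 ratio of 1.22. Of 242 values of single genes, 238 moved by less than 0.26, the SD of 1 probe set, and 241 kept their sign, the exception being Cpe under quantile normalisation. Many of these values could not move. A gene above the floor in both arrays keeps its ratio with a lower floor or none. The median over probe sets can change only Pomc, the 1 gene with more than 1 measured probe set. These counts are therefore no measure of how stable the values are. Centring each array on its median moved the median of all genes to 0.02 and the share of genes below 0 to 46.6%. No paired analysis was possible because each genotype had 1 array. Of the 40 genes, 5 had no probe set of their name here and 4 were under the floor in both pools.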
